A study of Mus musculus with 9 samples.

Results

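The clustered histone genes were followed in CD80+ medullary thymic epithelial cells, the cells of the thymic medulla that display tissue antigens to developing T cells. All probe sets whose gene symbol begins with Hist1h, Hist2h, Hist3h or Hist4h were taken, which gave 68 of the 35552 probe sets of the array and of the 21536 that carry a gene symbol. They stand for 45 symbols, of which 8 were carried by more than 1 probe set. The linker histone H1 accounted for 5 probe sets, H2A for 21, H2B for 16, H3 for 13 and H4 for 13. By the cluster named in the symbol, 48 were labelled Hist1 (chromosome 13), 16 Hist2 (chromosome 3), 3 Hist3 (chromosome 11) and 1 Hist4 (chromosome 6). Where each probe set itself lies in the genome was not checked.

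The cells came from female Balb/c mice aged 4 to 6 weeks, and 9 samples formed 3 groups of 3, each on an array of its own. Arrays 1 to 3 were C2TA wild type, arrays 4 to 6 C2TA knockdown and arrays 7 to 9 C2TA knockout. C2TA is the transactivator on which MHC class II genes depend, and its gene is named Ciita on the array. Samples within a group are described as biological replicates. What construct the knockdown used, which part of the gene the knockout lacks and whether mice were pooled is not stated in those labels, so a p-value reflects the scatter among these 9 samples and no more.

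Most clustered histone genes are replication-dependent: they are transcribed during S phase, when new DNA has to be wrapped into nucleosomes. H2A, H2B, H3 and H4 form the nucleosome core, and H1 binds the linker DNA between cores. Their mRNAs end in a stem-loop in place of a poly(A) tail, and the clusters hold many near-identical copies of each gene, so the level of 1 copy is hard to separate from that of its neighbours. A smaller set of replacement histones is encoded outside the clusters and made throughout the cell cycle.

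The promoters of 5 members are printed to show the control regions of 4 named genes with higher knockout means (Hist1h1b, Hist1h2bb, Hist1h3i and Hist1h4f). Beside them stands Hist1h1c, a member of the same cluster whose knockout mean was not higher. Knockout and wild type values overlapped for Hist1h1c and also for Hist1h2bb. Each promoter is the 250 bases before the start of the gene in RefSeq, build GRCm38.p6, read in the direction of transcription. Capitals mark 4 motifs on either strand. One is TATAAA, the core of the TATA box consensus, which was matched at any distance: it begins at position -28 before the start in Hist1h1b, -10 in Hist1h2bb, -147 in Hist1h3i and -250 in Hist1h4f. Next comes CCAAT, a common element of cell cycle promoters. The octamer ATTTGCAT has long been known from H2B promoters, and AAACACA from H1 promoters. Different motifs shared bases in 0 of the member promoters.
Hist1h1b promoter (RefSeq H1f5, chr13:21780626-21780875, minus strand): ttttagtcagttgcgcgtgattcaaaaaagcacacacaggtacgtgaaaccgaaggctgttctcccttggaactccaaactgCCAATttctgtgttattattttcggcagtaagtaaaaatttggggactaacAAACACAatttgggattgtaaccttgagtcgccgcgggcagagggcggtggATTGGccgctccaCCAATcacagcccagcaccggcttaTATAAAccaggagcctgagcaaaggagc
Hist1h1c promoter (RefSeq H1f2, chr13:23738557-23738806, plus strand): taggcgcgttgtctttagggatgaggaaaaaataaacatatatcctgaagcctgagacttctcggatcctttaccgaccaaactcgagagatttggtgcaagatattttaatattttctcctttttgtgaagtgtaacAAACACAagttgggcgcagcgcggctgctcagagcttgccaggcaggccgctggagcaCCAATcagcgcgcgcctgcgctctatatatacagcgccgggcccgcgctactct
Hist1h2bb promoter (RefSeq H2bc3, chr13:23746484-23746733, plus strand): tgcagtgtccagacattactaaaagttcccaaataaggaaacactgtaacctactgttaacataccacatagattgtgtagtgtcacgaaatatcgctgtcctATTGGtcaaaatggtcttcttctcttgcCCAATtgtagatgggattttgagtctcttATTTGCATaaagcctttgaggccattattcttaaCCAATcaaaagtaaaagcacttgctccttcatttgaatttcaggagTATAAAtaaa
Hist1h3i promoter (RefSeq H3c11, chr13:21783398-21783647, minus strand): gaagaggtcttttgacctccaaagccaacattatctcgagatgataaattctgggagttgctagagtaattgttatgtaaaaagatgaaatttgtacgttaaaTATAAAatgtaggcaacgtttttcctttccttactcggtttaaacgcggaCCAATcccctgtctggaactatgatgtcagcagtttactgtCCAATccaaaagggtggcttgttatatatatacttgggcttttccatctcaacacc
Hist1h4f promoter (RefSeq H4c6, chr13:23551669-23551918, minus strand): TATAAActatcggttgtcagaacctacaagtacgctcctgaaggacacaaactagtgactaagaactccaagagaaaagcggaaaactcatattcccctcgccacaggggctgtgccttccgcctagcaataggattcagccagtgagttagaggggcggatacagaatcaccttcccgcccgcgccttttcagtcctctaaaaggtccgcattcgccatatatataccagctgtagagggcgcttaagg
A promoter was found in the RefSeq table for 41 of the 46 RefSeq genes to which the members matched. CCAAT was present in 32 of the 41 promoters (78%), against 33.8% of all 32851 promoters of that table. It was found in all 5 H1, all 13 H2A and all 9 H2B promoters, in 3 of 5 H3 promoters and in 2 of 9 H4 promoters. ATTTGCAT was present in 12 of 41 (29.3%, against 1.6%), namely in 6 of 13 H2A and 6 of 9 H2B promoters and in 0 of the H1, H3 and H4 promoters. TATAAA was present in 19 of 41 (46.3%, against 12.4%) and AAACACA in 8 of 41 (19.5%, against 6.25%), 4 of these being among the 5 H1 promoters. Promoters of neighbouring histone genes share ancestry, so these shares are descriptions.

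Levels are given on the log2 scale, on which 1 unit is a 2-fold difference, and levels of different probe sets are not set against each other. A difference passed when limma's moderated test, fitted across all 21536 named probe sets, gave a Benjamini-Hochberg adjusted p under 0.05. Per-array values follow the array numbers throughout. The 3 comparisons share groups, so their values for a member are given side by side and not as separate evidence.

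The targeted gene, the cell identity and the arrays themselves were checked first. Ciita was lower by 1.11 (SE 0.16, adjusted p 0.0599) in the knockdown and by 0.33 (SE 0.16, adjusted p 1) in the knockout; whether its probe set lies in the deleted part is not known, and the class II genes H2-Aa, H2-Ab1, H2-Ea and Cd74 all fell in the knockout, H2-Aa by 4.50 (SE 0.21, adjusted p 2.5e-05). Medullary epithelial markers were present in all groups, with a mean level over 10 genes of 7.94 to 8.43 on the wild type arrays, 8.35 to 8.41 in the knockdown and 8.10 to 8.37 in the knockout. Wild type 1 and knockout 7 stood apart, with an interquartile range of all values of 2.50 and 2.68 against 2.85 to 3.04 on the other 7 arrays.

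Many members followed each other from array to array. Each probe set's deviations from its own mean over the 9 arrays were compared within a histone type, and probe sets were chained together where these deviations lay within 0.1 of each other on every array. The chains joined 33 of the 68 probe sets into 6 blocks of alike pattern, which left 41 patterns; the levels within a block differ, and so may the deviations of probe sets joined only through others. The largest block held 10 of the 13 H3 probe sets, labelled Hist1h3a, Hist1h3g, Hist1h3i, Hist2h3b, Hist2h3c1 and Hist2h3c2. The next held 9 H2A probe sets labelled Hist1h2af, Hist1h2an and Hist1h2ao, and another 5 H4 probe sets labelled Hist1h4b and Hist1h4m, of which both labelled Hist1h4m had identical values on all arrays. Of the 6 probe sets labelled Hist2h3c2, 5 also name a Hist1 gene in their description. Counts of probe sets below are therefore not counts of independent genes.

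No member passed the threshold in any of the 3 comparisons. In the background of all named probe sets, 0.0418% passed between knockout and wild type, 0.0604% between knockdown and wild type, and 0.0371% between knockdown and knockout. Array weights, which count wild type 1 and knockout 7 least, brought 11 members past it for knockout against wild type (0.19% of all probe sets) and 11 for knockdown against knockout (1.13%), and leaving out both arrays brought 11 for knockdown against knockout (0.325%); each time these were the 10 H3 probe sets of the largest block and Hist1h2bb. With all arrays weighted alike, the smallest adjusted p of a member was 1 for knockout against wild type, 0.961 for knockdown against wild type and 0.413 for knockdown against knockout. With 3 arrays against 3, an exact two-sided permutation test of a single probe set cannot go below 0.1. The authors' deposited table gives the members a q-value, in percent, of 43.1 to 114, with 0 members under 5; it does not state which groups it compares.

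Before adjustment, the members leaned to one side in the knockout. Their median difference from wild type was 0.43, against 0.01 for all probe sets tested, and the knockout mean was the higher one for 59 of the 68. An unadjusted limma p under 0.05 was reached by 35 members (51.5%), all with higher means in the knockout, where 1.79% of all probe sets reached it in that direction. The 3 knockout values also lay above all 3 wild type values for 35 members, against 2.59% of all probe sets, and lay below them for 0, against 2.35%. In bulk RNA, fewer cells of a type and less RNA per cell cannot be told apart.

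**Figure D1:**
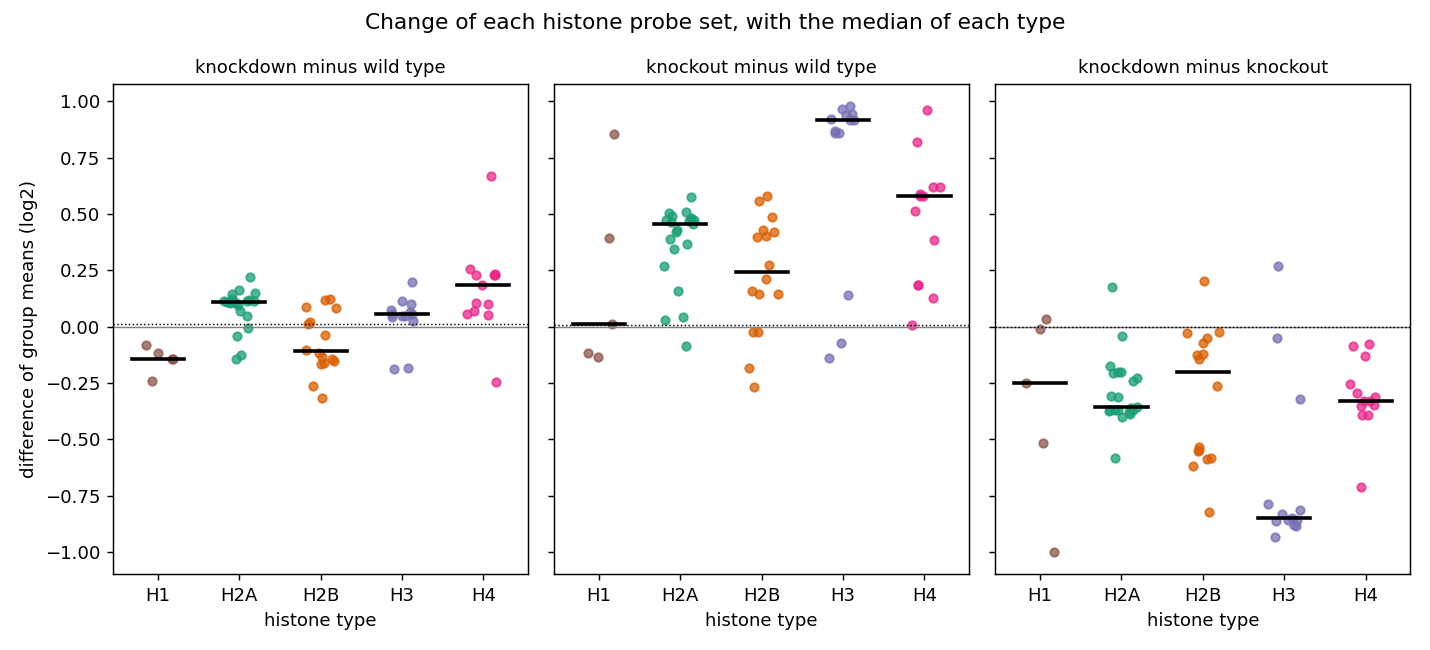
Difference in log2 level of each of the 68 histone probe sets in the 3 comparisons, grouped by histone type; each point is 1 probe set, each bar the median of the type and the dotted line the median of all probe sets tested. H3 divides into 10 probe sets between 0.86 and 0.98 and 3 near 0 for knockout against wild type, H1, H2B and H4 are spread out, and the knockdown lies around 0 against wild type.

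Knockout array 8 carried much of this difference. It was the highest of the 9 arrays for 48 of the 68 members (70.6%), against 11.9% of all probe sets. The median deviation of the members from their own mean over the 9 arrays was 0.65 on knockout 8, 0.08 on knockout 9 and 0.01 on knockout 7, while the 6 other arrays lay between -0.23 and -0.04. Knockout 7 and knockout 9 each stood above all 3 wild type arrays for 42 members (61.8%), where 19.8% and 18.6% of all probe sets did so, and knockout 8 did for 53 (77.9%, against 20.4%). Without knockout 8, the median difference from wild type was 0.23 and 22 members had an unadjusted p under 0.05, against 1.22% of all probe sets with higher means. Without wild type 1 and knockout 7 together, the median difference was 0.63 and 41 members reached that p with higher means (3.71% of all probe sets). Without wild type 2, 20 members reached it with higher and 1 with lower means in the knockout (3.23% and 2.13% of all probe sets).

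**Figure D2:**
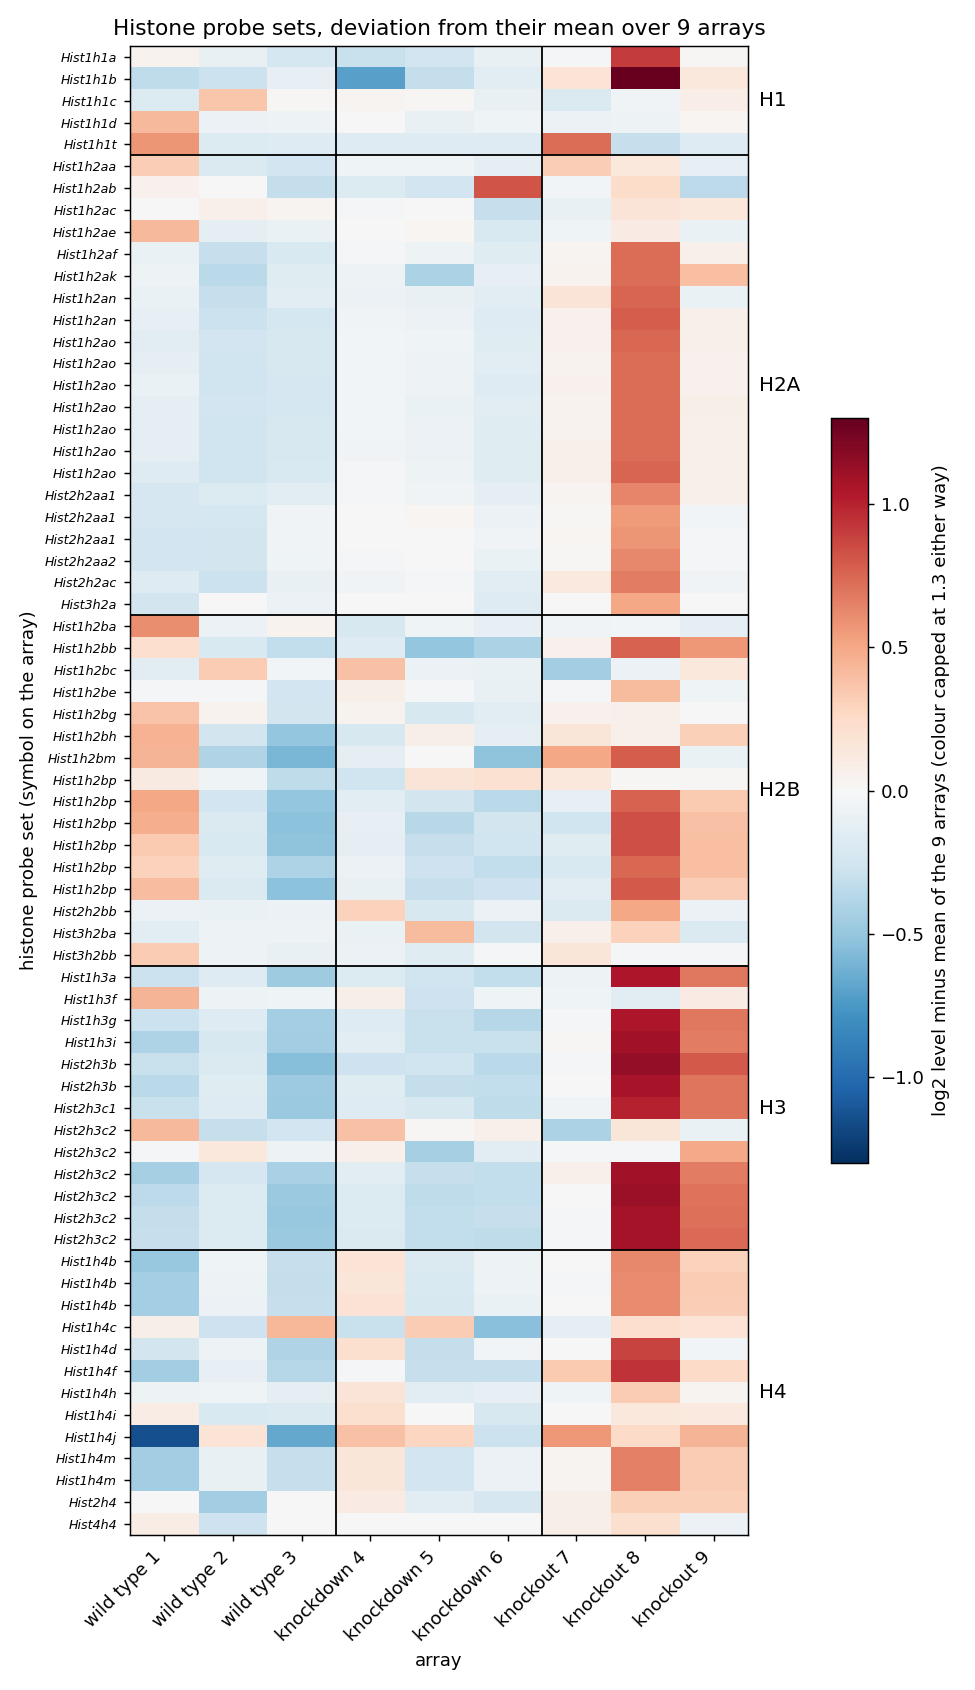
Deviation of each histone probe set (rows, grouped by type) from its mean over the 9 arrays (columns), in log2 units on a colour scale. The column of knockout 8 is the highest for 48 of 68 rows, and the 10 H3 rows of alike pattern are also high on knockout 9.

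H1, the linker histone, was measured by 5 probe sets that did not share a pattern, and their median difference between knockout and wild type was 0.01. Hist1h1b, a linker histone of dividing cells, stood at 6.40, 6.45 and 6.62 in the wild type, at 6.02, 6.42 and 6.59 in the knockdown and at 6.90, 8.27 and 6.86 in the knockout. The knockout values were the highest 3, and knockout 8 lay more than 1 unit above every other array. Its group means were 6.49 ± 0.12 (SD, n = 3), 6.34 ± 0.30 and 7.34 ± 0.80, and the knockout mean was 1.81-fold the wild type mean (log2 difference 0.85, SE 0.33, 95% interval 0.11 to 1.60, limma unadjusted p 0.0293, adjusted p 1). Hist1h1a, another linker subtype, stood at 5.90, 5.75 and 5.63, then 5.56, 5.61 and 5.75, then 5.83, 6.76 and 5.87. Only knockout 8 left the range of the other groups, and the difference from wild type was 0.40 (SE 0.23).

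Hist1h1c, a linker subtype found in most somatic tissues, stood at 6.35, 6.88 and 6.54 in the wild type, at 6.56, 6.54 and 6.42 in the knockdown and at 6.33, 6.48 and 6.61 in the knockout. Here the groups overlapped and knockout 8 was not raised, with a knockout minus wild type difference of -0.12 (SE 0.15). Hist1h1t, the testis linker histone, lay between 2.31 and 2.45 on 7 arrays and at 3.19 and 3.34 on wild type 1 and knockout 7. Those are the arrays with the narrow spread of values. Hist1h1d lay between 2.30 and 2.42 on 8 arrays and at 2.82 on wild type 1.

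H2A had 21 probe sets with a median knockout minus wild type difference of 0.46, and 20 of the 21 knockout means were higher. An unadjusted p under 0.05 was reached by 15 of them with higher means, against 1.79% of all probe sets. All knockout values lay above all wild type values for 15, against 2.59%. Higher knockout means were found for 51.8% of all probe sets. Knockout 8 was the highest array for 18 of the 21, with a median deviation of 0.72 against 0.05 on knockout 7 and 0.06 on knockout 9. The block of 9 probe sets differed by 0.47 to 0.51, a block of 4 labelled Hist2h2aa1 and Hist2h2aa2 by 0.35 to 0.42, and a pair labelled Hist1h2an and Hist2h2ac by 0.43 to 0.46. Left without knockout 8, the H2A median was 0.23 and 5 probe sets had an unadjusted p under 0.05. Without wild type 2 the median was 0.42, with 3 probe sets at that p. Of all probe sets, 2.52% without knockout 8 and 5.36% without wild type 2 reached it in either direction.

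Hist1h2ak, chosen after its values were seen as the H2A probe set with the largest difference, stood at 5.24, 4.96 and 5.16 in the wild type, at 5.24, 4.89 and 5.20 in the knockdown and at 5.36, 6.03 and 5.70 in the knockout. All 3 knockout values lay above the other 6, by 0.58 (SE 0.18) on average over wild type. Hist1h2aa, a testis H2A, stood at 5.50, 4.99 and 4.93, then 5.13, 5.13 and 5.05, then 5.50, 5.32 and 5.08. It was highest on wild type 1 and knockout 7, and its groups overlapped. Hist1h2ab had the widest range of the type, 2.18 to 3.34, with its single high value on knockdown 6. Hist1h2ac had the narrowest, 1.95 to 2.41.

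H2B differed less, with a median of 0.24 over 16 probe sets and 12 higher knockout means (51.8% of all probe sets). An unadjusted p under 0.05 was reached by 1, with a higher mean (1.79% of all probe sets). The groups did not overlap for 0, where 2.59% of all probe sets had higher and 2.35% lower knockout values without overlap. Hist1h2bb, a core H2B, was the one with that p. It stood at 3.88, 3.47 and 3.35 in the wild type, at 3.50, 3.16 and 3.25 in the knockdown and at 3.72, 4.43 and 4.23 in the knockout. Knockout 7 lay below wild type 1, so the groups overlapped, while every knockout value exceeded every knockdown value. The knockout minus wild type difference was 0.56 (SE 0.20, limma unadjusted p 0.0222, adjusted p 1).

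Wild type 1 was high for H2B, with a median deviation of 0.33, while wild type 3 stood at -0.32. Wild type 3 was the lowest array for 10 of the 16, against 6.89% of all probe sets. Hist1h2bm, the widest of the type, stood at 6.75, 5.92 and 5.72, then 6.19, 6.30 and 5.78, then 6.81, 7.09 and 6.22. Wild type 1 was thus among its 3 highest arrays. With wild type 1 and knockout 7 both left out, the H2B median difference between knockout and wild type was 0.43. An unadjusted p under 0.05 was then reached by 8 H2B probe sets, against 7.7% of all probe sets in either direction. A block of 3 probe sets labelled Hist1h2bp differed between knockout and wild type by 0.42 to 0.49. Hist1h2bc stood at 7.54, 8.01 and 7.65, then 8.05, 7.60 and 7.59, then 7.23, 7.60 and 7.82, with overlapping groups and a difference of -0.18 (SE 0.20). Hist1h2ba, a testis H2B, lay between 3.14 and 3.39 on 8 arrays and at 3.95 on wild type 1, and Hist3h2bb was the narrowest, from 3.28 to 3.76.

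H3 showed the largest median difference of the 5 types, 0.92 between knockout and wild type. Hist1h3i, a core H3 of the block of 10, stood at 8.04, 8.24 and 7.99 in the wild type, at 8.30, 8.15 and 8.15 in the knockdown and at 8.46, 9.54 and 9.11 in the knockout. The 3 knockout values were the highest of the 9, with knockout 7 close to knockdown 4 and the other two well above it. Its means were 8.09 ± 0.13 (SD, n = 3), 8.20 ± 0.09 and 9.03 ± 0.54, and the knockout mean was 1.93-fold the wild type mean (log2 difference 0.95, SE 0.23, 95% interval 0.43 to 1.46, limma unadjusted p 0.0022, adjusted p 1). A probe set labelled Hist2h3c2 (10408202) had the smallest unadjusted p of all members in this comparison, 0.0014, with a difference of 0.97 (SE 0.22).

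All 10 probe sets of the H3 block differed by 0.86 to 0.98. They had higher knockout values without overlap, as 2.59% of all probe sets did, but with their alike pattern they do not count as 10 separate genes. Their values were not identical: on wild type 1 they ran from 7.45 (Hist2h3c1) to 8.24 (a probe set labelled Hist2h3c2). Levels of different probe sets are not set against each other, so this range does not show whether the genes are separate. By array, the H3 median deviation was 1.07 on knockout 8 and 0.69 on knockout 9, and -0.02 on knockout 7. When knockout 8 was left out, the H3 median difference was 0.67. An unadjusted p under 0.05 was then reached by 10 H3 probe sets, against 2.52% of all probe sets in either direction. The 3 other H3 probe sets had differences of -0.14 to 0.14. Hist1h3f lay between 1.69 and 2.40 (difference -0.14, SE 0.16), and a probe set labelled Hist2h3c2 (10500327) lay between 1.73 and 2.57 (difference -0.07, SE 0.22).

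H4 had a median difference of 0.58, and all 13 knockout means were higher (51.8% of all probe sets). An unadjusted p under 0.05 was reached by 8 probe sets (1.79% of all with higher means). All knockout values lay above all wild type values for 9 (2.59% of all). Hist1h4f, a core H4 gene, stood at 5.41, 5.76 and 5.50 in the wild type, at 5.85, 5.57 and 5.57 in the knockdown and at 6.21, 6.81 and 6.12 in the knockout. It was one of the members in which knockout 7 stood clearly above the wild type too. Its means were 5.56 ± 0.18 (SD, n = 3), 5.66 ± 0.16 and 6.38 ± 0.38, a 1.76-fold difference (log2 difference 0.82, SE 0.19, 95% interval 0.39 to 1.24, limma unadjusted p 0.0017, adjusted p 1). The 5 probe sets labelled Hist1h4b and Hist1h4m, a block of alike pattern within both counts, differed by 0.58 to 0.62.

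Hist1h4j, the widest H4 probe set, stood at 3.12, 4.43 and 3.58 in the wild type, at 4.64, 4.53 and 3.97 in the knockdown and at 4.82, 4.50 and 4.69 in the knockout. Its knockout minus wild type difference of 0.96 (SE 0.30) came with a wild type SD of 0.66, and knockout 8 was its lowest knockout value. Hist1h4i was the narrowest of the type, from 4.71 to 5.13, with a difference of 0.18. For H4 the lowest array was wild type 1 in 7 of 13 probe sets, the array that was high for H2B. Of all probe sets, 29.4% had their lowest and 22.7% their highest value on wild type 1.

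**Figure D3:**
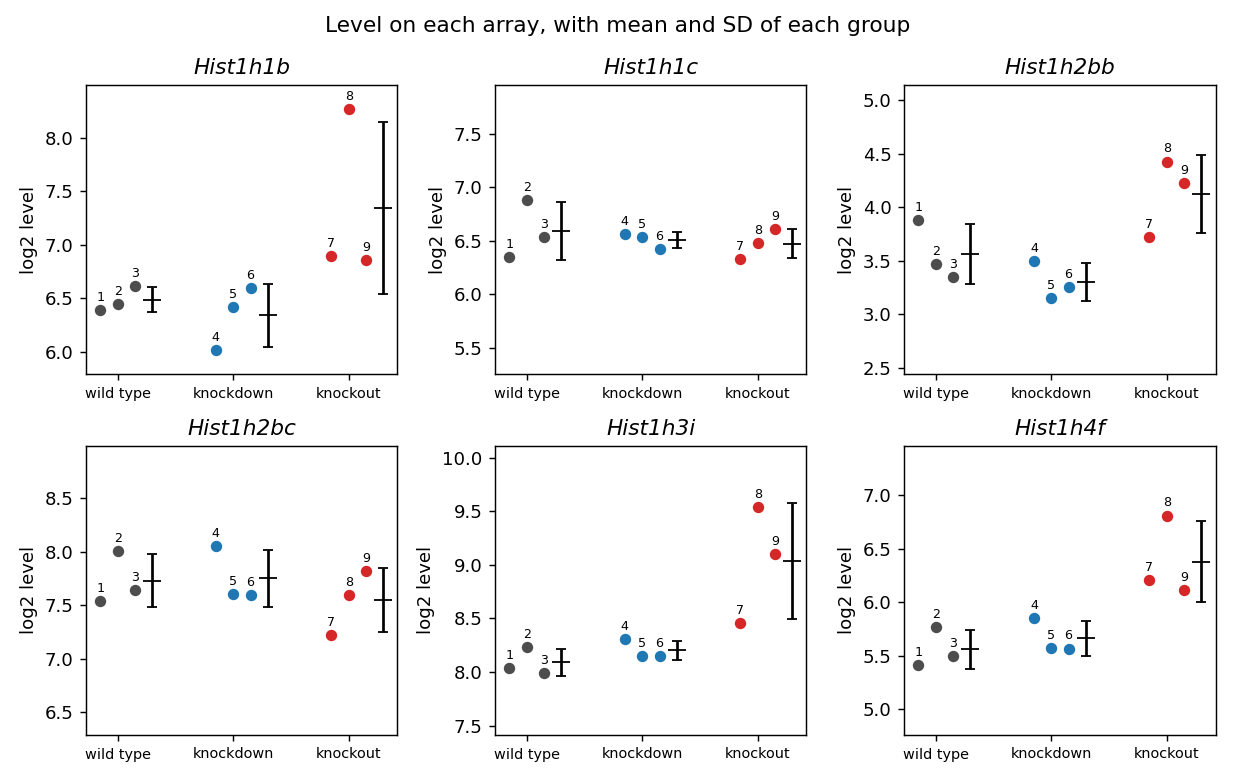
Log2 level of Hist1h1b, Hist1h1c, Hist1h2bb, Hist1h2bc, Hist1h3i and Hist1h4f on each of the 9 arrays, each numbered point 1 array; beside the points stand the mean (tick) and SD (bar) of each group. Hist1h1b, Hist1h3i and Hist1h4f have their 3 highest values in the knockout, Hist1h1c and Hist1h2bc do not.

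The members were also divided by signal. Over the 52 members whose mean level lay above 4.53, the median of all probe sets, the median knockout minus wild type difference was 0.48 and 49 means were higher. Over the 16 members below it, the difference was 0.02 and 10 means were higher. Among the members above it the medians by type were 0.92 for H3 (10 probe sets), 0.58 for H4 (10), 0.47 for H2A (18), 0.40 for H2B (11) and 0.40 for H1 (3). As background, dim probe sets follow the amount of RNA less closely than bright ones.

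**Figure D4:**
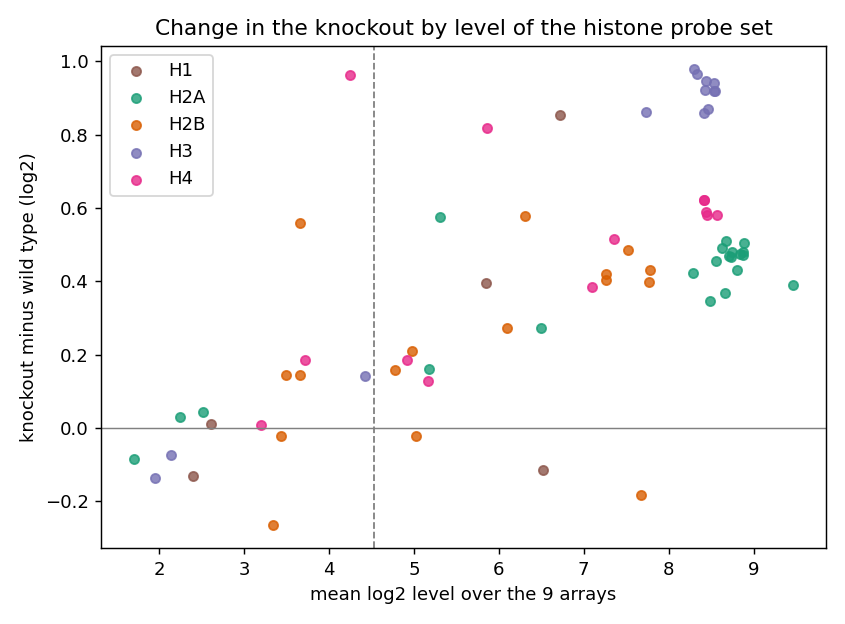
Mean log2 level of each histone probe set over the 9 arrays against its knockout minus wild type difference, coloured by type. The dashed line is the median level of 4.53; the 16 members to its left have a median difference of 0.02 with Hist1h2bb and Hist1h4j well above it, and the 10 H3 probe sets of alike pattern form the group between 0.86 and 0.98.

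The members' values in the knockdown lay near those of the wild type. The median difference of the members was 0.07 (0.01 for all probe sets), with 46 means higher and 22 lower, and 0 members reached an unadjusted p under 0.05 where 5.14% of all probe sets did. The groups did not overlap for 3 members with higher and 1 with lower values, which is 4.41% and 1.47% of them, where 4.69% and 3.39% of all probe sets did the same. By type the medians were -0.14 for H1, 0.11 for H2A, -0.11 for H2B, 0.05 for H3 and 0.19 for H4. Hist1h4j had the smallest p, with a difference of 0.67 (SE 0.30, limma unadjusted p 0.051, adjusted p 0.961) and overlapping groups. For Hist1h3i the 95% interval of the knockdown minus wild type difference ran from -0.40 to 0.63.

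Set against the knockout, the knockdown was lower for 64 of 68 members, with a median of -0.35 (0.00 for all probe sets). An unadjusted p under 0.05 was reached by 15 members (22.1%), all lower in the knockdown, against 2.1% of all probe sets in that direction. The groups did not overlap for 26 (38.2%, against 4.15%) with lower and 0 (against 5.44%) with higher knockdown values; of the 26, 11 were H2A, 10 H3, 2 H1, 2 H2B and 1 H4. The type medians were -0.85 for H3, -0.36 for H2A, -0.33 for H4, -0.25 for H1 and -0.20 for H2B. Hist1h2bb had the smallest p (difference -0.82, SE 0.20, 95% interval -1.28 to -0.36, limma unadjusted p 0.0027, adjusted p 0.413). Hist1h1b differed by -0.999 (SE 0.33, adjusted p 0.678) and Hist1h4f by -0.71 (SE 0.19, adjusted p 0.49). This comparison too moved with single arrays: without knockout 8 the median was -0.15 and 14 members had an unadjusted p under 0.05 with lower values in the knockdown (1.61% of all probe sets). These were -0.48 and 36 without knockout 7 (3.52%), and -0.40 and 28 without knockout 9 (1.48%).

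Genes outside the clusters were read from lists of the histone life cycle. The replacement and variant histones, 16 of 16 measured, had a median knockout minus wild type difference of 0.03 and 0 calls. They were not uniformly flat: differences ran from -0.38 to 0.47, with 9 higher and 6 lower knockout means. H2afz, H2afy and Cenpa differed by 0.33 (SE 0.20), 0.32 (SE 0.19) and 0.29 (SE 0.20), with overlapping groups. Some of the list, H1foo, H1fnt and Hils1 among them, lay below the median level of all probe sets. Clustered histone members below that level had a median difference of 0.02. H3f3b, which encodes the replication-independent H3.3, stood at 9.89, 11.08 and 10.70, then 10.64, 10.64 and 10.61, then 10.37, 10.77 and 10.64. It was lowest on wild type 1 and knockout 7, and its difference was 0.04 (SE 0.26); it was picked after its values were seen. H2afx, the H2A variant phosphorylated at DNA breaks, had a difference of 0.47 (SE 0.18, limma unadjusted p 0.0253), and the oocyte linker histone H1foo -0.24 (SE 0.13). In the knockdown against wild type the 2 with the smallest p were H1foo (-0.28, SE 0.13) and H2afz (0.30, SE 0.20).

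Histone transcription and 3' end processing factors, 18 of 19 measured, had a median difference of 0.13 with 0 unadjusted p under 0.05. Among them Slbp, which binds the stem-loop, differed by 0.36 (SE 0.25; picked after its values were seen), the S phase cyclin Ccne1 by 0.32 (SE 0.15) and Snrpd3, a spliceosome Sm protein also found in the U7 particle, by 0.60 (SE 0.35). Histone chaperones, 19 of 20 measured, had a median of 0.16, also with 0, and Rbbp4 and Chaf1b, subunits of the chromatin assembly factor that loads new H3 and H4, differed by 0.28 (SE 0.15) and 0.24 (SE 0.14). Of all probe sets, 3.37% reached an unadjusted p under 0.05 between knockout and wild type in either direction. No gene of these lists passed the threshold in that comparison or in the 2 comparisons with the knockdown.

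Cell cycle genes leaned the same way as the histones. The S phase DNA replication list, 38 of 39 measured, had a median knockout minus wild type difference of 0.24, with 35 higher means, 7 unadjusted p under 0.05 and 0 calls. Mcm3 and Mcm2, subunits of the replicative helicase, had the smallest p, with differences of 0.78 (SE 0.19) and 0.53 (SE 0.13). The G2 and mitosis list, 19 of 20 measured, had a median of 0.52, with 19 of 19 means higher, 9 unadjusted p under 0.05 and 0 calls; the cyclin gene Ccna2 differed by 1.01 (SE 0.19, adjusted p 0.545) and Birc5, which encodes survivin, by 0.52 (SE 0.17). In both lists every gene at an unadjusted p under 0.05 had a higher knockout mean. Of all probe sets, 51.8% had higher knockout means and 1.79% reached that p with higher means. Without knockout 8 the medians of the S phase list and of the G2 and mitosis list were 0.09 and 0.30. Then 5 and 3 of their genes had an unadjusted p under 0.05, against 2.52% of all probe sets in either direction.

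By array, the G2 and mitosis list had a median deviation of 0.74 on knockout 8, 0.22 on knockout 9 and -0.02 on knockout 7, and the S phase list 0.42, 0.06 and -0.02. Knockout 8 was thus the high array for these lists as for the histones. In the knockdown minus wild type comparison the medians were 0.05 for S phase and 0.12 for G2 and mitosis. An unadjusted p under 0.05 was reached by 0 genes of either list, against 5.14% of all probe sets.

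**Figure D5:**
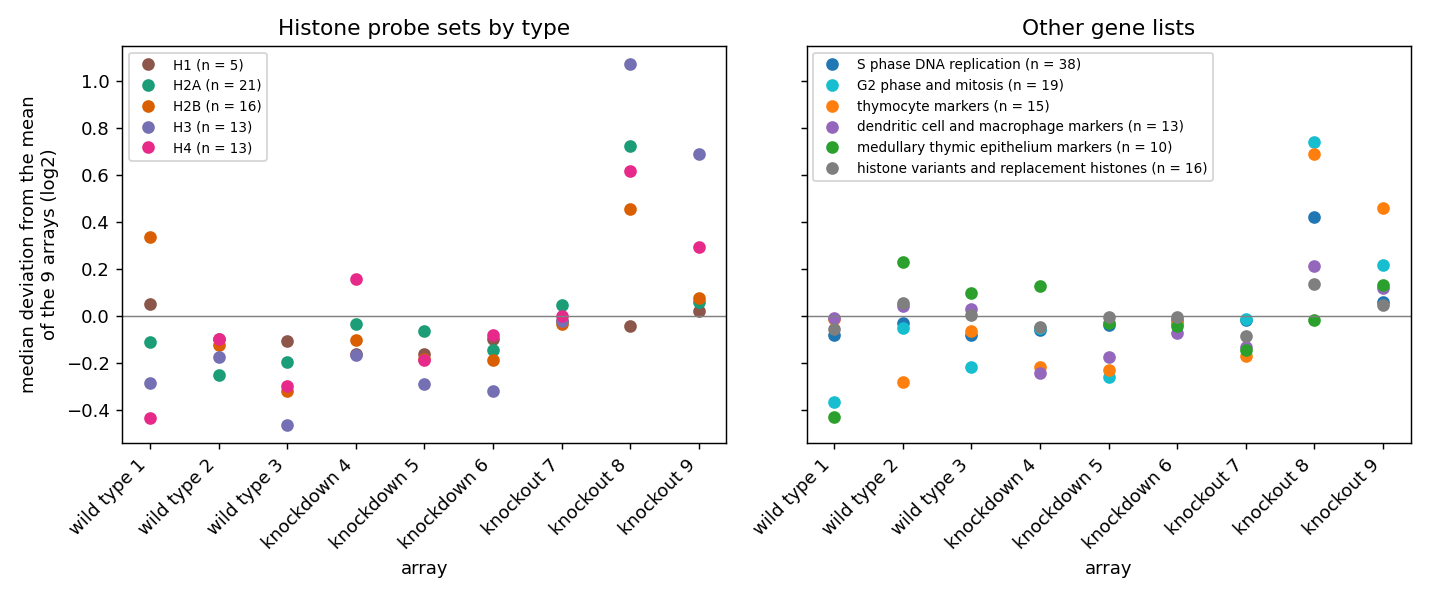
Median deviation from the mean of the 9 arrays, in log2 units, for the histone types and for the other gene lists on each array. Knockout 8 is at 1.07 for H3, 0.72 for H2A, 0.74 for G2 and mitosis and 0.69 for thymocyte markers, and near 0 for H1 and the medullary epithelial markers.

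Thymocyte markers were high on knockout 8 and knockout 9. Of the 18 genes of this list, 15 were measured; their mean level was 4.68 to 4.91 in the wild type, 4.67 to 4.92 in the knockdown and 4.73 to 5.66 in the knockout. Their median deviation was 0.69 on knockout 8, 0.46 on knockout 9 and -0.17 on knockout 7. On the same arrays it was 0.65, 0.08 and 0.01 for all histone members, and 1.07, 0.69 and -0.02 for H3. For the whole thymocyte list, the median knockout minus wild type difference was 0.38, and it was 0.25 without knockout 8. Of the 15 genes 13 had higher means, where 51.8% of all probe sets did. An unadjusted p under 0.05 was reached by 5, all with higher means (1.79% of all probe sets), with 0 calls. The knockout values lay above all wild type values for 0 genes, against 2.59% of all probe sets. Rag1, the recombinase of developing lymphocytes, stood at 4.92, 5.08 and 5.31, then 5.01, 4.75 and 5.42, then 5.30, 6.78 and 6.52 (difference 1.10, SE 0.34), and Lck, a kinase of the T cell receptor pathway, differed by 0.57 (SE 0.21). The part of the thymocyte signal, of the cell cycle genes and of the array spread in the histone differences was not tested.

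Markers of other cell types showed smaller values. The median difference was 0.11 for dendritic cell and macrophage markers (13 of 13 measured, mean level 5.28 to 5.35, 5.01 to 5.17 and 5.20 to 5.64 in the 3 groups), medullary epithelial markers -0.07, B cell markers -0.18 (5 genes) and mesenchyme and endothelium markers 0.10 (6 genes). None of these lists had a call between knockout and wild type. Among the medullary markers Aire, the regulator of tissue antigens, rose in the knockdown by 1.54 (SE 0.14, adjusted p 0.00412).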

How the data were processed

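Total RNA of 9 samples was isolated with a column kit that keeps small RNA and was labelled with biotin using a whole-transcript kit, per the labels' protocols. The deposited log2 values were made by the authors with RMA, per the submitters' processing notes and the file headers; neither a version nor an annotation release is stated there. The deposited linear intensity values equal 2 to the power of the log2 values (largest difference 5e-07) and were not tested. The authors' q-value in percent is a deposited score that reaches 114 and was used for description only. A second deposited copy of the log2 values was identical for all 35552 probe sets.

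Of these probe sets 21536 carry 1 gene symbol, 0 several and 14016 none. Members were matched to RefSeq (GRCm38.p6), 51 by accession and 17 by synonym. A linear model over all 9 arrays (limma 3.58.1, R 4.3.3, lmFit and eBayes, 6 residual degrees of freedom) gave 3 comparisons, with two-sided p-values adjusted by Benjamini-Hochberg over the named probe sets and a threshold of 0.05. The fit was run on simulated data with independent scatter and no outlying array. Its pass check covered only added differences larger than any member difference, so it gives no assurance for differences of the size reported here. Probe sets without a gene symbol were left out of the main fit, and no other filter was applied to it. The number of arrays limits the precision.

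Named members were, by rule, any past the threshold, the 5 smallest p per comparison and direction, all H1, testis histones, and the widest and narrowest of each type (27 in all, of which the text describes most); of the other lists, those past the threshold or else the 2 smallest p per comparison. Members and lists were chosen with earlier results of these data known. The lists held 171 genes, 164 measured. Tried as alternatives were another normalization, centring, a filter on dim probe sets, trended and robust variances, array weights, other sets of probe sets or arrays, the interquartile range as a covariate, and leaving out each array.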

Additional observations from a re-analysis of the deposited data

How the results depend on the processing

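The number of histone probe sets past the threshold was 0 in each comparison when any 1 of the 9 arrays was left out. It was 11 for knockout against wild type with array weights, which gave wild type 1 a weight of 0.144 and knockout 7 one of 0.359. For knockdown against knockout the weights gave 11, and so did the omission of both wild type 1 and knockout 7 (11). These were the 10 H3 probe sets of alike pattern and Hist1h2bb each time, and 0 passed under the other alternatives; the cause was not tested. Leaving out 1 array moved the median difference of the members between 0.23 and 0.58 for knockout against wild type, between -0.48 and -0.15 for knockdown against knockout and between 0.019 and 0.12 for knockdown against wild type. Members at an unadjusted p under 0.05 then numbered 21 to 43, 14 to 36 and 0 to 2. The share of all probe sets at that p, in either direction, then ran from 2.52% to 6.8%, 3.55% to 8.08% and 3.53% to 8.28%. Below, the share of all probe sets in the same direction stands in brackets. For knockout against wild type, the 35 members at that p (1.79%) all had higher means. They became 22 after repeated quantile normalization (2.71%) and 23 in a fit of only those groups (0.989%). With 1 probe set per symbol it was 20 of 45 (1.75%). It became 38 with the interquartile range as a covariate (4.41%), 41 without wild type 1 and knockout 7 (3.71%) and 49 with array weights (5.15%). For knockdown against knockout, 15 with lower knockdown means (2.1%) became 41 with array weights (6.08%). It was 30 with the interquartile range as a covariate (5.57%) and 37 without wild type 1 and knockout 7 (6.89%). No value that passed changed its sign. The filter on dim probe sets left 52 members. No paired analysis was possible because the arrays are numbered 1 to 9 and no number is shared between groups.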

Other observations

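Equal values occurred within a group: 2 members had the same value on all 3 knockdown arrays, and 0 did in the wild type or the knockout. These were Hist1h1t and Hist4h4, named after their values were seen. Wild type 3 was the lowest of the 9 arrays for 21 of the 68 members, where it was the lowest for 6.89% of all named probe sets; 10 of these members were H2B and 9 H3. Wild type 2 was the lowest for 14 members (11.6% of all probe sets), 12 of them H2A, and wild type 1 for 12 (29.4%), 7 of them H4.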
